A study of Mus musculus with 6 samples.

Results

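The genes described here are 8 that mark pyramidal cells of hippocampal field CA1 or are prominent in them: Zbtb20, Pou3f1, Wfs1, Fibcd1, Spink8, Mpped1, Man1a and Lmo1. They were taken as a list of names drawn up with earlier results of these data known, and are 8 of the 20234 genes in the deposited table. All 8 were found in every mouse and passed the filter on low counts in each main comparison below.

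CA1 tissue of 6 male C57Bl6 mice was profiled by Drop-seq, which catches single cells in droplets with barcoded beads and counts transcripts by their unique molecular identifiers (UMIs). At postnatal day 28 the animals had received 1 injection of either placebo (3 mice, numbered 1, 3 and 5) or 5000 IU/kg recombinant human EPO (rhEPO; 3 mice, numbered 2, 4 and 6), and tissue was taken 6 h later. No transgene, reporter or gene deletion is named for any of these mice. The labels also carry D1 (placebo 1 and 3, EPO 2) or D2 (placebo 5, EPO 4 and 6), whose meaning they do not give.

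CA1 pyramidal cells are the glutamatergic output neurons of the hippocampus. Their field, layer and neighbours are usually told apart by sets of genes rather than by any single one, because most of the genes concerned are also used elsewhere in the brain. Zbtb20 and Pou3f1 encode transcription factors, the first with zinc fingers and a BTB domain and needed for CA1 to form, the second with a POU domain and also known from myelinating glia. Lmo1 encodes a LIM-only cofactor of transcription factors. Wfs1 encodes wolframin of the endoplasmic reticulum, and Man1a an alpha-mannosidase that trims N-glycans in the Golgi. Fibcd1 encodes a membrane receptor for acetylated sugars such as chitin, Spink8 a Kazal-type serine protease inhibitor, and Mpped1 a protein with a metallophosphoesterase domain.

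Of 6000 barcodes, 973 passed the filter (390 from placebo, 583 from EPO mice), with between 43 cells (placebo mouse 3) and 271 cells (EPO mouse 4) per mouse and 6910600 UMIs in all. Clustering, from which the 8 genes were withheld, gave 619 glutamatergic-like cells in 6 clusters, with all 6 glutamatergic markers found in each of these clusters, besides oligodendrocyte-like (133), astrocyte-like (77), GABAergic-like (53), endothelial-like (39), oligodendrocyte precursor (OPC)-like (34) and microglia-like (18) cells. Placebo mouse 3 gave 16 glutamatergic-like cells, and the other mice gave between 90 and 166 each. In the glutamatergic-like cells the 12 other pyramidal genes of a list summed to 4589 CPM (the UMI count scaled to a common library total), against 373 CPM in the remaining cells. The 8 dentate gyrus genes of another list summed to 37.7 CPM and the 9 measured CA2 and CA3 genes to 99.4 CPM in glutamatergic-like cells. The 6 genes of a subiculum list (Fn1, Nts, Slc17a6, Dlk1, Tshz2, Rxfp1) summed to 558 CPM there. The subiculum borders CA1.

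The libraries of placebo mouse 1 and EPO mouse 4 stood apart because they shared barcodes of retained cells. Over all 6000 barcodes, 67 sequences occurred in more than 1 library. Among retained cells, 26 barcode sequences occurred in more than 1 library, and all 26 lay in this pair of libraries, 1 from each treatment. Each of the 26 fell in the same cell class in both, 16 of them glutamatergic-like, and the profile in EPO mouse 4 correlated best with its namesake in 26 of 26 cases (median r = 0.763, against 0.408 for other pairings, across genes). Namesakes held a median of 14730.5 UMIs in placebo mouse 1 and 3932.5 in EPO mouse 4, and they made up 6.60% of the retained UMIs of EPO mouse 4. Cluster 9 consisted of cells of these 2 mice alone, 14 from placebo mouse 1 and 21 from EPO mouse 4. All 6 shared cells that were in cluster 9 for placebo mouse 1 lay outside it for EPO mouse 4. Without the retained cells carrying the 26 sequences, the level of the members in glutamatergic-like cells changed by between 0.299% (Man1a) and 4.08% (Wfs1). Tests without these cells are given with each comparison. A retained cell whose namesake failed the filter was not left out in them.

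For the position of the 8 genes, symbols were looked up in GENCODE vM21 (GRCm38, which is mm10). Zbtb20 spans 766722 bases of chromosome 16 (42875881 to 43642602, plus strand). Pou3f1, at 3849 bases the shortest, lies on chromosome 4 (124656807 to 124660655, plus strand). Wfs1 is on chromosome 5 (36966104 to 36989205, minus strand), Fibcd1 on chromosome 2 (31813290 to 31846005, minus strand), and Spink8 on chromosome 9 (109812280 to 109826633, plus strand). Mpped1 is on chromosome 15 (83779467 to 83858494, plus strand), Man1a on chromosome 10 (53904785 to 54076609, minus strand) and Lmo1 on chromosome 7 (109138572 to 109175207, minus strand). No protein-coding gene overlaps any of them. Noncoding genes counted in the table overlap Zbtb20 (3 genes, 27 UMIs together) and Man1a (1 gene, 8 UMIs).

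Which cells carried these genes was asked first. Levels are CPM of the summed cells of a class, a share is the percentage of cells with at least 1 UMI after each cell was thinned to 1500 UMIs, and intervals are exact (Clopper-Pearson, 95%) and cover counting error only. A 3' count does not allow the genes to be ranked against each other, so each gene is compared with itself across classes. Because clusters were made from the same cells, differences between classes are given without a test. Oligodendrocyte-like cells, sequenced about as deeply (median 5319 UMIs against 5233 in glutamatergic-like cells), were set as a measure of what free RNA can give. Pou3f1 and Man1a stood higher there than in astrocyte-like cells (92.0 against 10.7 CPM and 148 against 17.9 CPM). The class was therefore not read as such a measure for them.

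Wfs1, Fibcd1, Spink8, Mpped1 and Lmo1 had their highest CPM in glutamatergic-like cells, by a margin that depended on the class compared. Wfs1 reached 176 CPM there (95.6 to 289 over the 6 mice) against 15.0 CPM in oligodendrocyte-like cells, a ratio of 11.7. Fibcd1 reached 124 CPM against 9.20, a ratio of 13.5, and Spink8 124 CPM against 6.90, a ratio of 17.9. By CPM each of these 3 genes was higher in glutamatergic-like cells in 6 of 6 mice, and their shares of 14.5%, 16.8% and 11.6% stood against 0.00%, 0.75% and 0.75% of oligodendrocyte-like cells. Lmo1 was sparse in the glutamatergic-like class, with 225 UMIs (44.4 CPM) and a share of 6.14% (4.38% to 8.33%). It had no UMI in 133 oligodendrocyte-like cells, which allows a share of cells with a UMI of up to 2.26% (3 counts of the total; the exact interval ends at 2.74%), and against a floor of 3 counts over that class its level was at least 12.9-fold higher in glutamatergic-like cells. Against astrocyte-like cells, where Lmo1 held 14.3 CPM from 4 UMIs, the ratio was 3.11. The glutamatergic-like class was higher there in 6 of 6 mice by CPM but in 4 of 6 by share. The astrocyte-like share was 3.90% (0.81% to 10.97%). Microglia-like cells had no Lmo1 UMI, and the same floor gave a ratio of 0.764, so no difference can be read for them. Mpped1 was found in both neuron classes. Its 186 CPM in glutamatergic-like cells compared with 83.3 CPM in GABAergic-like cells (higher in 5 of 5 mice by CPM, in 4 of 5 by share) and with 10.4 CPM in oligodendrocyte-like cells.

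Pou3f1 was highest in glutamatergic-like cells and had a second site. It reached 232 CPM in glutamatergic-like cells and lay between 190 and 268 CPM in the 6 mice. Oligodendrocyte-like cells held 92.0 CPM, with a share of 12.8% (7.63% to 19.7%), whereas GABAergic-like and astrocyte-like cells held 5.95 and 10.7 CPM. OPC-like cells held 52.4 CPM, from 6 UMIs that all came from EPO mouse 4. The ratio of glutamatergic-like to oligodendrocyte-like cells was thus 2.52 for Pou3f1, while it was between 11.7 and 17.9 for Wfs1, Fibcd1, Spink8 and Mpped1 in the same cells.

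The other 2 genes were not limited to neurons. Zbtb20 was highest in astrocyte-like cells, at 1711 CPM and a share of 77.9% (67.0% to 86.6%), followed by OPC-like cells at 1057 CPM, and glutamatergic-like cells at 749 CPM overlapped over mice with endothelial-like cells at 721 CPM, being higher in 2 of 5 mice. Astrocyte-like cells lay above glutamatergic-like cells in 5 of 6 mice by CPM and in 6 of 6 by share. GABAergic-like (220 CPM), oligodendrocyte-like (231 CPM) and microglia-like cells (174 CPM) had the lowest Zbtb20. For Man1a, glutamatergic-like cells (158 CPM, 107 to 237 over mice) and oligodendrocyte-like cells (148 CPM, 72.6 to 268) overlapped, with the glutamatergic-like class higher in 2 of 6 mice by CPM and in 4 of 6 by share, and the 18 microglia-like cells reached 174 CPM. Man1a was low in GABAergic-like, astrocyte-like, OPC-like and endothelial-like cells, at between 8.74 and 20.8 CPM.

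**Figure D1:**
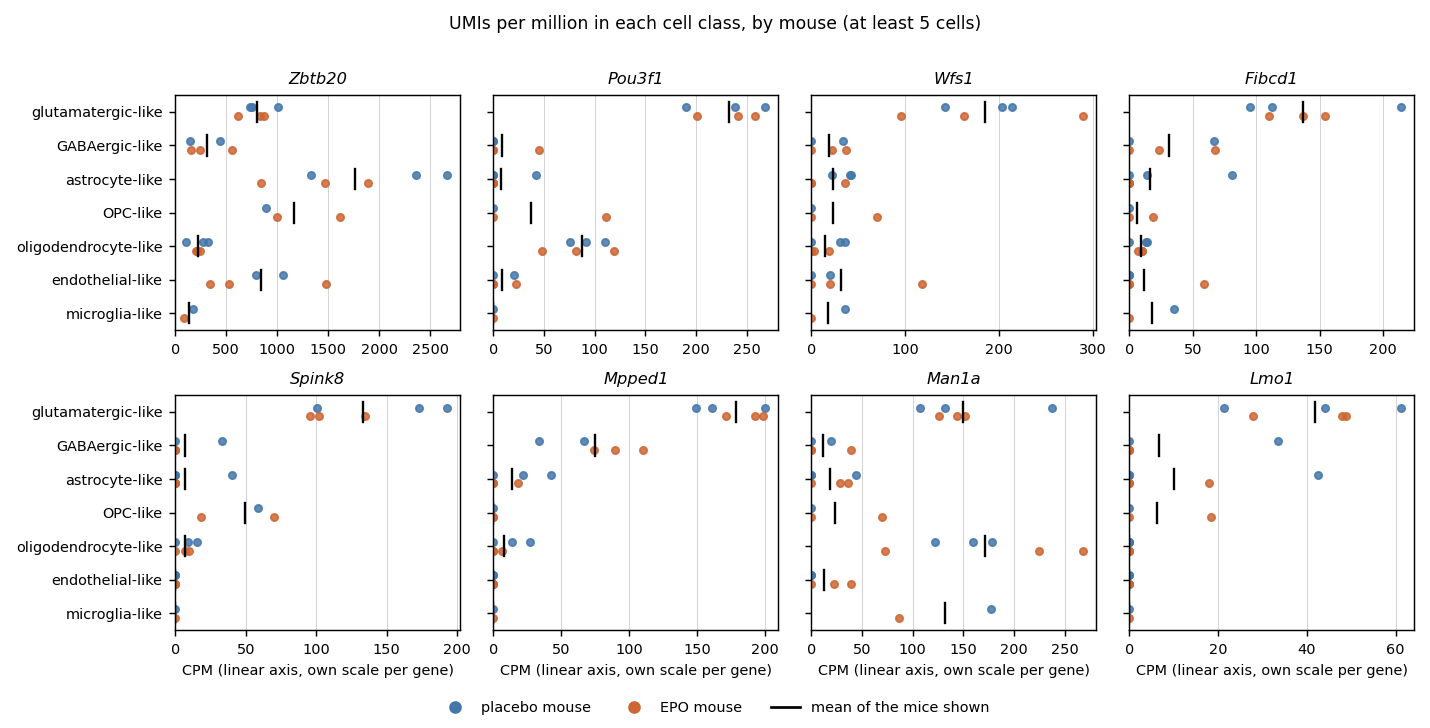
Level of each gene (CPM, horizontal, linear with an own scale for each gene) in 7 cell classes (vertical); a point is 1 mouse with at least 5 cells of the class, blue for placebo and orange for EPO, and the bar is the mean of the mice shown. Wfs1, Fibcd1, Spink8, Mpped1 and Lmo1 lie furthest right in the glutamatergic-like row, Zbtb20 in the astrocyte-like row, and the Man1a points of oligodendrocyte-like and glutamatergic-like cells overlap.

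Within the glutamatergic-like class the 8 genes split into patterns that did not coincide. The 6 clusters were led by Cpne7, Slit1, Itga8 and Thsd4 (cluster 2, 132 cells), by Gm10115, Cpne7, Dmd and Csmd1 (cluster 4, 97 cells), by Spink8, Hpca, Lefty1 and Arpc2 (cluster 3, 121 cells), by Gapdh, Ppia, Actg1 and Rpl10 (cluster 9, 35 cells), by Tshz3, Garnl3, Csmd1 and Rxfp1 (cluster 0, 147 cells), and by Nts, Slc17a6, Ncald and Tshz2 (cluster 5, 87 cells). Clusters 5 and 0 held most of the subiculum-list signal, with 1657 and 1001 CPM, while the other 4 clusters held between 40.7 and 55.6 CPM. Depth and RNA quality moved with the clusters as well: the median was 10229 UMIs in cluster 3 and 12960 in cluster 9 against 3830 in cluster 0, and the median mitochondrial share of a cell was 20.5% in cluster 0 and 3.34% in cluster 3. Their part in the levels below was not tested. Placebo mouse 5 and EPO mouse 6 supplied 64 and 32 of the 121 cells of cluster 3.

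Zbtb20 and Fibcd1 followed the same order. Zbtb20 was at 1785 CPM in cluster 2 (1482 to 2650 over the 5 mice with at least 5 cells) and 1662 CPM in cluster 4 (1258 to 2238), at 854 and 780 CPM in clusters 3 and 9, and at 148 and 61.0 CPM in clusters 0 and 5, with no overlap over mice between clusters 2 and 4 on one side and clusters 0 and 5 on the other. Fibcd1 was at 238, 214, 175 and 122 CPM in clusters 2, 4, 3 and 9 and at 38.7 and 15.0 CPM in clusters 0 and 5. Clusters 2 and 4 overlapped over mice in both genes, and Fibcd1 in cluster 3 ranged from 37.8 to 243.9 CPM over mice. Spink8 and Lmo1 had another peak, in clusters 3 and 9, where Spink8 stood at 258 and 228 CPM and Lmo1 at 80.2 and 66.3 CPM. In the other 4 clusters Spink8 lay between 12.9 and 46.1 CPM and Lmo1 between 8.60 and 28.8 CPM. Without the shared cells Spink8 was at 253 CPM in cluster 3 and 203 CPM in cluster 9, so its peak did not rest on them.

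Wfs1 and Pou3f1 had another order by pooled CPM, in which cluster 5 lay near clusters 3 and 9, and clusters 4 and 0 were lowest. Wfs1 was at 204 CPM in cluster 5, 224 CPM in cluster 3, 195 CPM in cluster 9 and 179 CPM in cluster 2, and it was low in clusters 4 and 0, at 90.0 and 45.9 CPM. Single mice ranged from 67.0 to 395 CPM in cluster 5, and the share of thinned cells with Wfs1 was 13.8% there (7.34% to 22.9%) against 21.2%, 20.7% and 20% in clusters 2, 3 and 9, so its place among these clusters was not resolved. Pou3f1 was at 263 CPM in cluster 5 (86.6 to 374 over mice), 294 CPM in cluster 3 and 285 CPM in cluster 9, with 192 CPM in cluster 2, and it was lowest in clusters 4 and 0, at 116 and 103 CPM. Man1a was at between 183 and 230 CPM in clusters 2, 3, 4 and 9 and at 76.0 and 51.6 CPM in clusters 5 and 0. Mpped1 varied least, from 152 to 222 CPM over all 6 clusters.

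**Figure D2:**
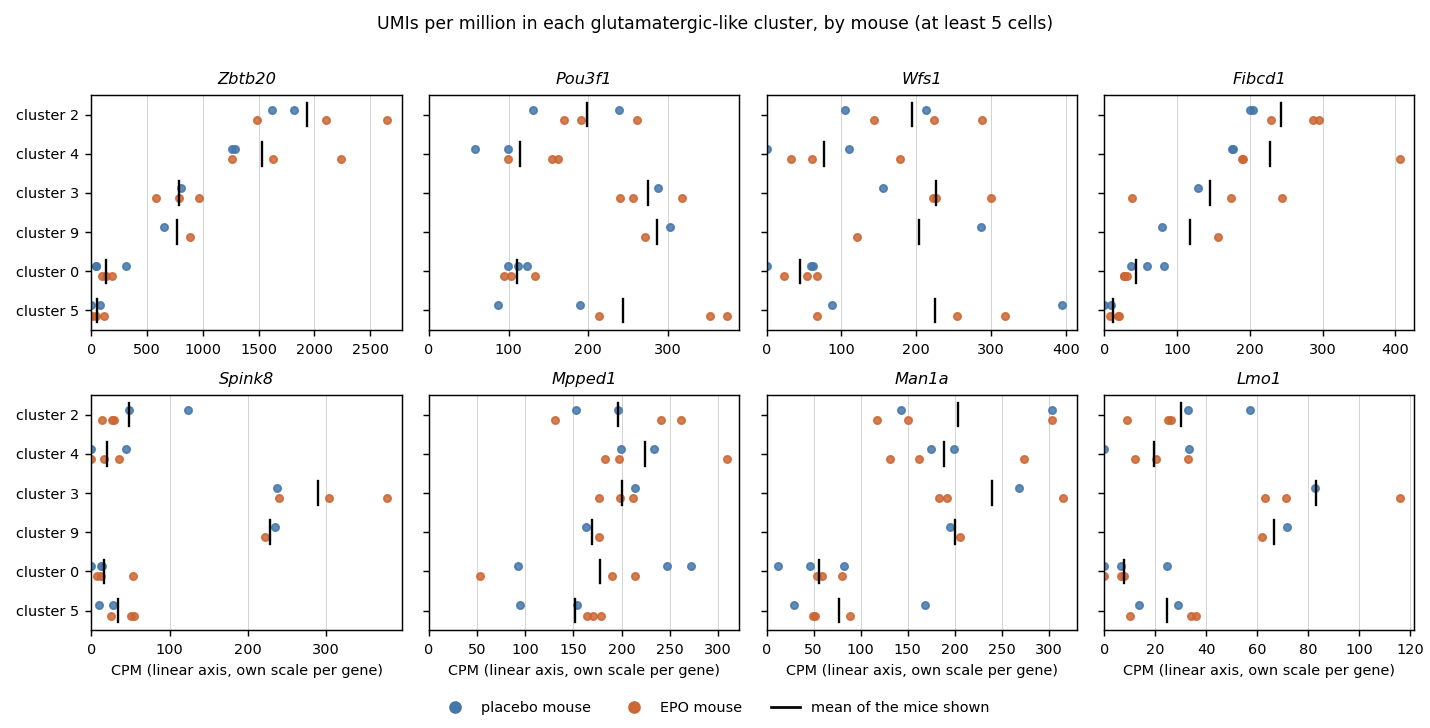
Level of each gene (CPM, horizontal, linear with an own scale for each gene) in the 6 glutamatergic-like clusters (vertical); points are mice with at least 5 cells of the cluster, blue for placebo and orange for EPO, and bars are means of the mice shown. Zbtb20 and Fibcd1 fall from cluster 2 to cluster 5, Spink8 and Lmo1 peak in clusters 3 and 9, and the mice of cluster 5 spread widely for Wfs1 (67.0 to 395 CPM) and Pou3f1 (86.6 to 374 CPM).

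Each gene's pattern was also compared with that of the 4634 genes holding at least 200 UMIs, by Pearson's r of log2 CPM over 22 sums per mouse and cluster (at least 10 cells each). These sums come from the same cells and clusters as the levels above, so they are no second source. They share libraries, depth and mitochondrial share, and r is a description only. Zbtb20 and Fibcd1 were each other's nearest gene (r = 0.948). Iqgap2 was second for both, at r = 0.928 with Zbtb20 and 0.938 with Fibcd1, and the third was Ptprg for Zbtb20 (0.899) and Zeb2 for Fibcd1 (0.915). Spink8 was nearest to Tesc (0.912), Fkbp1a (0.890) and Arpc1a (0.881), Lmo1 to Sertm1 (0.851), Actr3 (0.826) and Rasl11b (0.819), and Pou3f1 to Ptms (0.914), Rbbp7 (0.896) and Rprml (0.889). Wfs1 was nearest to C1qtnf4 (0.848), Laptm4a (0.811) and Spon1 (0.793), and Man1a to Ralgps2 (0.885), Tle1 (0.823) and Arhgap12 (0.821). Mpped1 had the loosest neighbours, Homer2 (0.778), Ap2b1 (0.729) and Bcr (0.719). Among the members themselves, Spink8 and Lmo1 had r = 0.705 and Pou3f1 and Spink8 r = 0.639, whereas Zbtb20 had r = 0.111 with Pou3f1 and 0.190 with Spink8.

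Promoter sequence was set beside these patterns for the pair with one pattern, Zbtb20 and Fibcd1, and for Wfs1, which departs from it. RefSeq sequences (GRCm38.p6, 250 bases before to 50 bases after an annotated start) were given for 6 of the 8 genes, all but Pou3f1 and Spink8. Read 5′ to 3′ on the strand of the gene, capitals mark matches on either strand to any of 4 motifs: the GC box, written GGGCGG, the promoter element CCAAT, the TATA box, searched as TATAAA, and the octamer bound by POU factors, ATGCAAAT.
Fibcd1, chr2:31845956-31846255, minus strand: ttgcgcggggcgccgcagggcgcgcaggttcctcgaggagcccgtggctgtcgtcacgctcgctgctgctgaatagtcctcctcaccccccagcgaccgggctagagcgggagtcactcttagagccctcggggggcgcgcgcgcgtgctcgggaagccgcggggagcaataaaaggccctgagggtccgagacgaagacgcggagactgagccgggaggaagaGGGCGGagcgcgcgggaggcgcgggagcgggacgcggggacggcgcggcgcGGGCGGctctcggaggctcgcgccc
Zbtb20, chr16:43247034-43247333, plus strand: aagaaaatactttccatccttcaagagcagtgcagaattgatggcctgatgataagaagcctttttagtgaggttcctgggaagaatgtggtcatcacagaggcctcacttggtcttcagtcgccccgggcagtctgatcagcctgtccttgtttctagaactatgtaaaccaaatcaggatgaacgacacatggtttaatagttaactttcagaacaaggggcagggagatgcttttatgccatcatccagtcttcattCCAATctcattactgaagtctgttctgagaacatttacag
Wfs1, chr5:36988933-36989232, minus strand: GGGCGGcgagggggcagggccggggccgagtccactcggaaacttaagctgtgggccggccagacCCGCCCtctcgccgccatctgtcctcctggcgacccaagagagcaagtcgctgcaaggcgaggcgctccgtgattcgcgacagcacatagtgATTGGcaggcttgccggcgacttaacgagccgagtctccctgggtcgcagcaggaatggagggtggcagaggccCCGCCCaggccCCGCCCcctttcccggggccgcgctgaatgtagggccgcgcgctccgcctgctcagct

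The promoters of Fibcd1 and Zbtb20 were unlike each other in composition. Fibcd1 had 74.3% G and C and 46 CpG dinucleotides, and Wfs1 had 70.0% and 30, whereas the Zbtb20 window had 43.3% and 3, against a median of 52.7% and 7 over 32851 promoters. GGGCGG was matched 2 times for Fibcd1 and 4 times for Wfs1 and had no match for Zbtb20, while 35.7% of all promoters held it. CCAAT had 1 match in Wfs1 and 1 in Zbtb20 (37.4% of all promoters held it). Neither TATAAA (13.6% of promoters) nor ATGCAAAT (1.74%) was found in any of the 3 windows. The Zbtb20 locus has 21 annotated transcripts, of which the window shows the start of 1.

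How many of the 8 genes were found in the same cell was asked next. Per glutamatergic-like cell thinned to 1500 UMIs, 1.70 ± 0.23 members were found (mean ± SD of the 6 mouse means). Oligodendrocyte-like cells had between 0.471 and 0.917 members per cell in single mice, and astrocyte-like cells between 0.571 and 1.29. Clusters 3, 9 and 2 had 2.55, 2.54 and 2.26 members per cell, cluster 4 had 1.72, and clusters 5 and 0 had 0.805 and 0.694. At least 3 members were found in 48.8% of the cells of cluster 3 but in 5.75% of cluster 5 and 2.04% of cluster 0, where 50.3% of cells had none. A cell without a member at 1500 UMIs is not thereby a cell that lacks it, since unthinned cells had 3.57 members on average.

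Joint detection was compared with the product of the single shares. To avoid the noise of 1 random draw, the exact expected detection at 1500 UMIs was computed for each of the 619 cells. Within mice, 25 of the 28 pairs were found together more often than the product, with a median ratio of 1.23. Within mouse and cluster together, 19 of 28 pairs exceeded the product and the median ratio was 1.04. In the one random thinning the counts were lower, with 23 of 28 pairs above the product within mice (median ratio 1.16) and 14 of 28 within mouse and cluster (median 1.00), so an excess within clusters was not resolved. Pairs above the product in 6 of 6 mice numbered 11 with expected detection and 2 in the random thinning. Spink8 with Lmo1 had the highest ratio (2.10 within mouse, 1.27 within mouse and cluster), followed by Wfs1 with Spink8 (1.496 and 1.10) and Wfs1 with Lmo1 (1.44 and 1.12). Zbtb20 with Fibcd1 went from 1.42 to 1.03 once clusters were kept apart. Man1a with Lmo1 lay below 1 both ways (0.923 and 0.781). The pairs share cells and libraries, and no test was made.

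**Figure D3:**
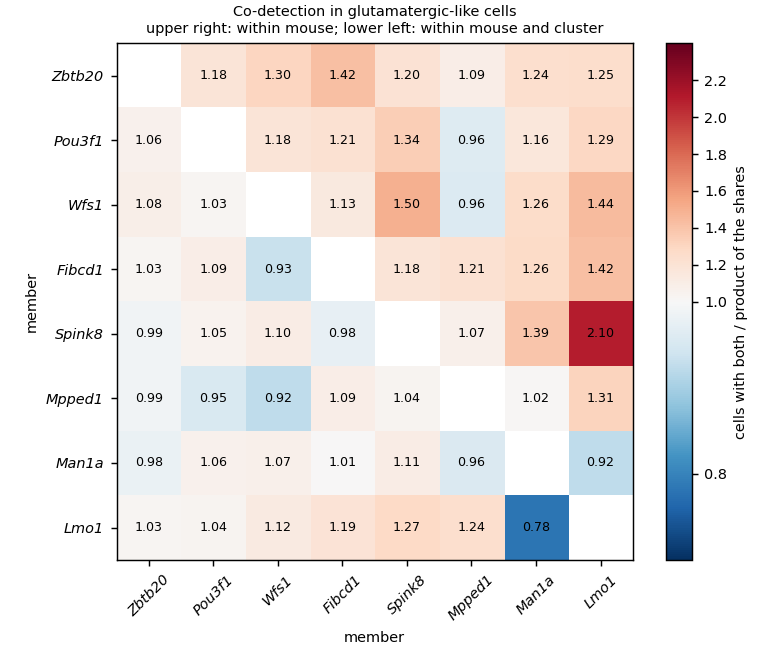
Ratio of cells with both genes to the product of their single shares among 619 glutamatergic-like cells at an expected depth of 1500 UMIs; rows and columns are the genes, the upper right triangle is within mouse and the lower left within mouse and cluster. Red cells (ratio above 1) fill the upper right except for 3 pairs, and the lower left is paler, with a median of 1.04.

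Mitochondrial share, a sign of cell quality, moved with detection in most genes. When the glutamatergic-like cells of each mouse were divided at their median mitochondrial share, Spink8 was found in 16.9% ± 7.03 (SD, n = 6 mice) of cells with the lower share and in 4.03% ± 5.43 of cells with the higher, and Pou3f1 in 33.0% ± 10.4 and 16.4% ± 4.69, both higher on the low side in 6 of 6 mice. Fibcd1 (18.0% ± 4.55 and 15.9% ± 3.08, higher in 3 of 6 mice) and Mpped1 (17.9% ± 9.40 and 25.5% ± 14.3, higher in 2 of 6) did not move that way. Cells were divided within mouse but not within cluster, and the clusters differed in mitochondrial share as well as in Spink8 and Pou3f1. Thinning also drew mitochondrial UMIs, so a higher share left fewer UMIs for all other genes. Cell quality, cluster and this loss of UMIs cannot be told apart here.

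The treatment comparison asked whether levels in glutamatergic-like cells differed 6 h after rhEPO. None of the 8 genes passed the test. Across 8522 genes, edgeR's quasi-likelihood test on counts summed per mouse called 0 genes at a Benjamini-Hochberg adjusted p under 0.05 (0% of those tested; 162, or 1.9%, had an unadjusted p under 0.05, DESeq2 and limma also called 0). Over all retained cells it called 0 of 10043 genes (0%; 124 unadjusted, 1 by DESeq2, which was Rarres2, 0 by limma), again with no member among them. In that sum over all cells, fewer cells of a type and less RNA per cell cannot be told apart. Without placebo mouse 5, 5 genes passed in glutamatergic-like cells, all lower after EPO and none a member: Apoe, Mbp, Mobp, Trf and Tspan2. Mbp and Mobp belong to the oligodendrocyte markers, which summed to 3308 and 2280 CPM in these cells of placebo mice 1 and 3. In EPO mice 2, 4 and 6 the markers summed to 477, 1626 and 667 CPM. What part this has in the 5 calls was not tested. The quasi-likelihood test shares its estimate of the spread between mice across genes. Zbtb20, for instance, had 24.9 degrees of freedom, more than 6 mice alone can give. The p-values therefore rest on that shared estimate as well as on these 6 mice.

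Zbtb20 was at 747, 1006 and 733 CPM (placebo 1, 3, 5) and at 871, 610 and 834 CPM (EPO 2, 4, 6). Pou3f1 stood at 190, 268 and 238 CPM (placebo 1, 3, 5) and 201, 242 and 258 CPM (EPO 2, 4, 6). The groups overlapped for both transcription factors, with a log2 fold change of -0.13 (95% interval -0.57 to 0.30) for Zbtb20 and 0.00 (-0.44 to 0.44) for Pou3f1. Lmo1, the cofactor, was at 44.0, 21.4 and 61.2 CPM (placebo) and 48.0, 27.7 and 48.7 CPM (EPO), and rested on as few as 2 UMIs in placebo mouse 3. Its interval was correspondingly wide, from -0.96 to 0.34.

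Wfs1 was at 203, 214 and 142 CPM (placebo) and 162, 95.6 and 289 CPM (EPO), so that the EPO mice spanned the whole range of the placebo mice. For Man1a the values were 132, 107 and 237 CPM (placebo) and 144, 126 and 151 CPM (EPO). Placebo mouse 5 alone lay above all EPO mice, and the log2 fold change was -0.30 (-0.81 to 0.21).

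Fibcd1 was at 95.2, 214 and 113 CPM (placebo) and 137, 110 and 154 CPM (EPO), and Mpped1 at 149, 161 and 200 CPM (placebo) and 171, 193 and 198 CPM (EPO). Both overlapped, with log2 fold changes of 0.06 (-0.52 to 0.63) and 0.09 (-0.36 to 0.54). Spink8 had the largest difference of the 8, at 101, 193 and 173 CPM (placebo) and 102, 95.6 and 135 CPM (EPO). Placebo mouse 1 lay among the EPO mice, and the log2 fold change was -0.46 ± 0.26 (SE; -0.996 to 0.07) with an unadjusted p of 0.0848 and an adjusted p of 1.00 in edgeR's quasi-likelihood test.

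In CPM, the groups overlapped for 8 of 8 members, while 1.99% of the 8522 genes had every EPO mouse below every placebo mouse and 4.56% every EPO mouse above. The median log2 fold change of the members was -0.10, against 0.00 over all genes tested. Within D1 and D2 taken apart, 2 members had the same sign in both: Spink8 (log2 ratio of means -0.53 and -0.59) and Zbtb20. For Zbtb20 both values were so near 0 (-0.01 and -0.02) that no direction is read from them. Man1a (0.27 and -0.77) and Lmo1 (0.55 and -0.68) turned between them. Each D number holds 1 placebo or 1 EPO mouse alone, so neither gives a test.

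The shared barcodes bore on the placebo side. Without them Spink8 in placebo mouse 1 went from 101 to 47.1 CPM, Pou3f1 from 190 to 125 CPM and Zbtb20 from 747 to 970 CPM, while in EPO mouse 4 Spink8 went from 95.6 to 87.0 CPM. The test without these cells called 0 of 8511 genes (173 with an unadjusted p under 0.05; over all retained cells 0 of 9834, 158 unadjusted).

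For shares of cells, mice were permuted exactly between the groups (two-sided), and with 3 per group p cannot fall under 0.1. In the one random thinning to 1500 UMIs the groups did not overlap for 2 of 8 members, against 2.9% of 4131 genes that lay below and 4.89% that lay above in every EPO mouse. These were Man1a (23.3%, 31.3% and 25.5% of cells in placebo, 18.6%, 16.9% and 18.5% in EPO mice, exact p = 0.1) and Mpped1 (25.6%, 25% and 24.1%, then 14.7%, 22.3% and 18.5%, exact p = 0.1). Neither held with the exact expected shares, added after seeing the data, which remove the chance of the draw. Man1a was then at 16.4%, 9.86% and 27.3% in placebo and 17.6%, 15.8% and 21.8% in EPO mice (exact p = 0.9), and Mpped1 at 19.5%, 23.0% and 25.1% and at 19.6%, 25.4% and 24.8% (exact p = 0.7). With expected shares all 8 members overlapped. Placebo mouse 3 entered these comparisons with 16 cells. Members per cell were 1.82 ± 0.19 in placebo and 1.57 ± 0.21 in EPO mice (SD, n = 3 each) in that draw, and the difference of -0.25 became -0.03 with expected shares.

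**Figure D4:**
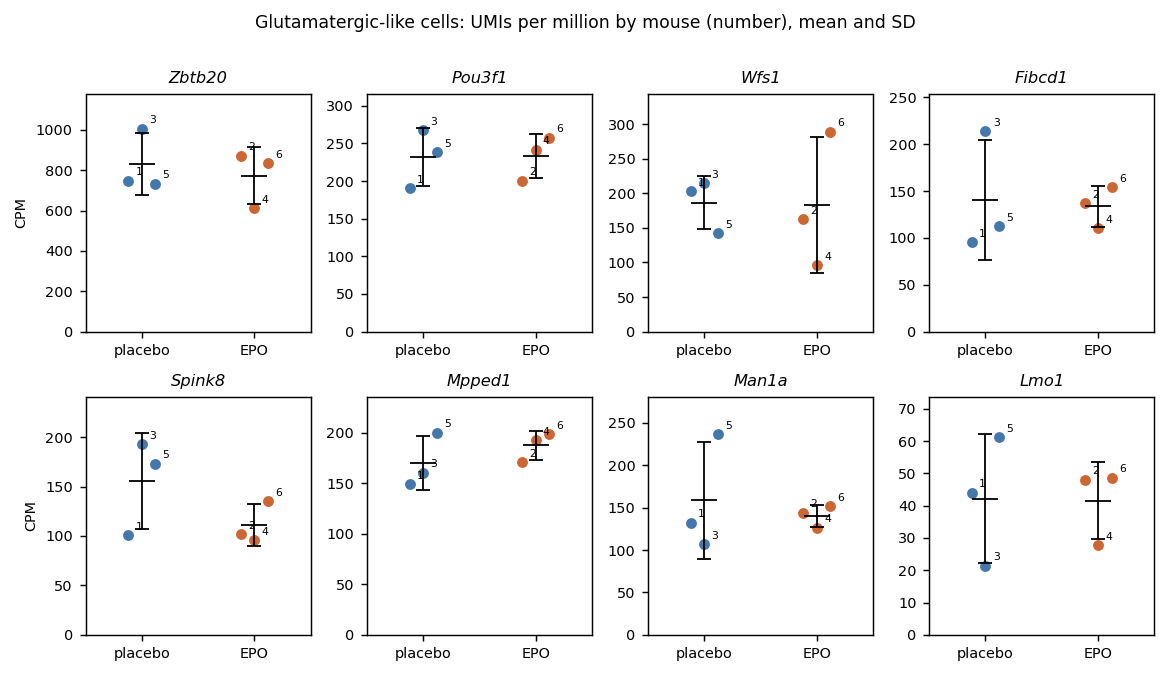
CPM of each gene in glutamatergic-like cells (vertical, linear from 0) for placebo (blue) and EPO (orange) mice, numbered as in the labels; black marks are the mean ± SD of 3 mice. Points of the groups overlap for all 8 genes, and Spink8 has the largest gap between means (155 and 111 CPM).

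Other lists gave the surroundings of this comparison. Of the 12 other pyramidal genes 0 passed in either direction, with a median log2 fold change of -0.23. Of the subiculum list 5 of 6 genes could be tested and 0 passed, with a median log2 fold change of 1.20. The 6 genes summed to 647, 721 and 655 CPM (EPO 2, 4, 6) and to 440, 257 and 285 CPM (placebo 1, 3, 5). This list was drawn up with earlier results of these data known, so these values cannot serve as support for a rise. Of the single genes tested, 4.56% lay above every placebo mouse in every EPO mouse. The summed oligodendrocyte markers in glutamatergic-like cells ranged from 804 to 3308 CPM in placebo and from 477 to 1626 CPM in EPO mice, with 0 of 6 markers at 0. What part these shifts have in the members' values was not tested.

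Cells with a UMI of the subiculum list were then set against the remaining glutamatergic-like cells of the same mouse. A cell counted as positive if it held a UMI of any of the 6 subiculum genes, which gave 289 positive and 330 negative cells over 6 mice, with mouse as a term of the fit. Placebo mouse 3 gave only 7 positive and 9 negative cells. A single UMI does not show that a cell belongs to the subiculum. Of the 354 cells of other classes, 24.0% were positive by the same rule (13.3% after thinning, against 46.7% and 29.4% of glutamatergic-like cells). Endothelial-like cells were positive in 94.9% of cases, and oligodendrocyte-like cells in 17.3% (5.26% after thinning). Fn1 and Tshz2 had the highest levels of the list in those other cells (63.6 and 56.0 CPM). Positive cells were somewhat deeper (median 6298 against 4324.5 UMIs), and 42.2% of them lay in cluster 0 and 29.4% in cluster 5, against 7.58% and 0.606% of negative cells. The test called 826 of 6178 genes (13.4%), 430 of them lower (6.96%) and 396 higher (6.41%) in positive cells, and without EPO mouse 6 it called 524 of 5807.

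Zbtb20, Fibcd1, Lmo1, Spink8, Man1a and Mpped1 fell in the positive cells, 6 of the 8 members. Wfs1 and Pou3f1 did not pass. The positive side pools clusters 0 and 5, where Wfs1 was at 45.9 and 204 CPM and Pou3f1 at 103 and 263 CPM. For Pou3f1 these 2 clusters overlapped over mice. A change near 0 in the pooled cells therefore does not show that either gene kept its level in both clusters. The median log2 fold change of the 8 was -0.89, against 0.00 over all genes tested.

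Zbtb20 was lower in 6 of 6 mice. Negative cells had 1382, 1455 and 970 CPM (placebo 1, 3, 5) and 1452, 1079 and 1495 CPM (EPO 2, 4, 6), and positive cells 435, 454 and 324 CPM and 398, 368 and 416 CPM. The 2 kinds of cells did not overlap, and the log2 fold change was -1.75 ± 0.10 (SE; adjusted p = 4.15e-31 in edgeR's quasi-likelihood test), the second smallest p of all genes after Ncald, which rose by 3.29. Fibcd1 was also lower in 6 of 6 mice, at 121, 252 and 151 CPM (placebo) and 198, 188 and 294 CPM (EPO) in negative cells and at 82.7, 167 and 47.0 CPM and 87.3, 69.9 and 65.5 CPM in positive cells. Its log2 fold change was -1.47 ± 0.16 (adjusted p = 1.54e-12, edgeR). The fit shares its estimate of spread across genes, with 121.9 degrees of freedom for Zbtb20 and 120.3 for Fibcd1. These SEs and p-values therefore do not rest on the 6 mice alone, and their size is not read as strength of evidence. Iqgap2, a neighbour of both in the correlation above, and Zeb2, a neighbour of Fibcd1, fell by 1.12 and 1.07 on the log2 scale. Both were picked for their likeness to these members over clusters of the same cells, so their fall is no separate support.

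Lmo1 was at 57.6 ± 19.8 CPM (SD, n = 6) in negative and 30.1 ± 9.57 CPM in positive cells, lower in 5 of 6 mice, with a log2 fold change of -1.15 ± 0.25 (adjusted p = 0.000216, edgeR). Spink8, at 180 ± 61.8 and 85.8 ± 23.1 CPM, was lower in 5 of 6 mice (-1.05 ± 0.16, adjusted p = 3.04e-07, edgeR), with placebo mouse 1 the exception. Man1a was lower in 6 of 6 mice, at 188 ± 44.7 and 123 ± 51.3 CPM (-0.73 ± 0.15, adjusted p = 9.37e-05, edgeR). Mpped1 was the weakest call, at 199 ± 32.6 and 163 ± 15.0 CPM (-0.39 ± 0.14, adjusted p = 0.0405, edgeR). It was not called under DESeq2 (adjusted p = 0.0649), limma (0.251) or without EPO mouse 2, EPO mouse 4, EPO mouse 6, placebo mouse 1 or placebo mouse 5, with adjusted p of 0.0623 to 0.118 in those fits of edgeR. In limma, Man1a (adjusted p = 0.0915) and Lmo1 (0.179) were not called either.

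Wfs1 was at 189, 310 and 173 CPM (placebo) and 167, 118 and 256 CPM (EPO) in negative cells and at 210, 95.6 and 88.7 CPM and 159, 84.3 and 310 CPM in positive cells. It was higher in positive cells in 2 of 6 mice, and its log2 fold change of -0.27 (-0.56 to 0.02) had an adjusted p of 0.244 in edgeR. Pou3f1 stood at 242 ± 61.2 CPM in negative and 221 ± 22.1 CPM in positive cells, with a log2 fold change of -0.11 (-0.37 to 0.15) and an adjusted p of 0.677. The log2 change of Zbtb20 minus that of Wfs1 was -1.25 ± 0.80 (SD, n = 6) and minus that of Pou3f1 -1.60 ± 0.44, below 0 in 6 of 6 mice each. These pairs were chosen after seeing the data and are given without a test.

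**Figure D5:**
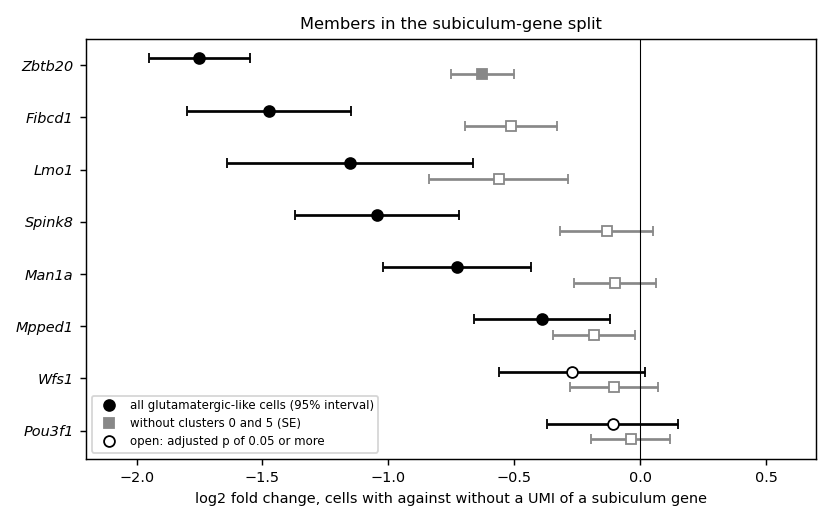
Log2 fold change (horizontal) of each gene (vertical) between glutamatergic-like cells with and without a UMI of a subiculum gene, with mouse as a term: black circles are all cells with 95% intervals, grey squares are cells outside clusters 0 and 5 with SE, and open symbols have an adjusted p of 0.05 or more. Zbtb20 lies furthest left at -1.75, Wfs1 and Pou3f1 are closest to 0, and outside the 2 clusters only Zbtb20 (-0.63) is filled.

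The differences were smaller among the other 4 clusters. When clusters 0 and 5 were left out, an alternative added after seeing the data, 48 of 4789 genes were called (1%), and of the members Zbtb20 alone passed (-0.63, adjusted p = 0.00746, edgeR). Fibcd1 (-0.51, adjusted p = 0.167), Lmo1 (-0.56, 0.373), Spink8 (-0.13, 0.848), Man1a (-0.10, 0.876) and Mpped1 (-0.18, 0.707) did not. With the shared barcodes left out 725 of 5905 genes were called (12.3%), and the same 6 members fell. With Fn1 and Tshz2 taken off the list, another alternative added after seeing the data, 916 of 6697 genes were called (13.7%; 5 mice) and the same 6 members fell, by 1.74 (Zbtb20), 1.51 (Fibcd1), 1.09 (Lmo1), 0.88 (Spink8), 0.57 (Man1a) and 0.40 (Mpped1) on the log2 scale. With cells thinned to 1500 UMIs before the split 205 of 1755 genes were called (11.7%), among them Zbtb20 (-2.78), Fibcd1 (-1.65) and Man1a (-1.19), while Mpped1 was not (-0.49, adjusted p = 0.383, edgeR) and Lmo1 and Spink8 held too few UMIs to be tested. Among the other pyramidal genes 8 of 12 fell in the positive cells, led by Hpca (-0.72), Camk2a (-0.61) and Itpka (-0.76), and Nrip3 rose (1.82), with edgeR adjusted p of 1.33e-09, 9.04e-07, 4.17e-06 and 6.00e-15. Of the CA2 and CA3 list 0 of 1 tested genes and of the deep cortical layers list 0 of 2 tested genes passed, and Lct, the 1 dentate gyrus gene tested, fell by 1.85 on the log2 scale (adjusted p = 3.27e-05, edgeR).

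Calb1, which encodes calbindin and marks superficial CA1 pyramidal cells, gave a second split within mice. Cells with a Calb1 UMI (173) were compared with cells without (430) in the 5 mice with at least 5 cells on each side. Placebo mouse 3, with 4 positive cells, was left out. The sides differed in depth (median 9829 against 4167 UMIs) and mitochondrial share (5.15% against 12.03%), and 42.2% of positive cells lay in cluster 3 and 17.3% in cluster 9, against 10.2% and 1.16% of negative cells. The test called 1127 of 6963 genes (16.2%), 520 of them higher (7.47%) and 607 lower (8.72%) in positive cells. Without EPO mouse 2 it called 707 genes and without placebo mouse 1 it called 680.

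Of the members, Lmo1 and Fibcd1 rose and 6 did not pass. Lmo1 was higher in 5 of 5 mice, at 23.2 and 49.5 CPM (placebo mice 1 and 5) and 22.1, 18.7 and 35.3 CPM (EPO mice 2, 4 and 6) without Calb1, and 69.6 and 69.9 CPM and 110, 40.6 and 64.6 CPM with it. Its log2 fold change was 1.05 ± 0.25 (adjusted p = 0.00190, edgeR). Fibcd1 went from 97.5 ± 21.3 to 150 ± 41.5 CPM (SD, n = 5; 0.53 ± 0.17, adjusted p = 0.0246, edgeR), higher in 4 of 5 mice. The call of Fibcd1 was lost without the shared barcodes (0.52, adjusted p = 0.0542, where 787 of 6952 genes, 11.3%, were called), without placebo mouse 5 (0.120), EPO mouse 4 (0.0896) or EPO mouse 6 (0.186), and under DESeq2 (0.193).

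Spink8 had a larger change than either, from 81.6 ± 64.1 to 183 ± 26.0 CPM (1.10 ± 0.38), but an adjusted p of 0.110 in edgeR. Placebo mouse 5 went the other way, from 191 to 160 CPM, and Spink8 passed without it (1.61, adjusted p = 1.54e-08), without placebo mouse 1 (0.88, 0.0237) and without the shared barcodes (0.91, 0.0101). Mpped1 was higher in 5 of 5 mice (161 ± 22.0 and 211 ± 29.0 CPM) without passing (0.25, adjusted p = 0.261). Zbtb20 (-0.07), Pou3f1 (-0.03), Wfs1 (0.13) and Man1a (0.09) had adjusted p of between 0.633 and 0.940 in edgeR.

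This split depended on which clusters entered. Outside clusters 0 and 5 the test called 1228 of 4795 genes (25.6%), 653 of them lower in positive cells (13.6%). There Zbtb20 fell with Calb1 (-1.15, adjusted p = 3.81e-07, edgeR) and so did Man1a (-0.69, adjusted p = 0.00598), Fibcd1 turned to -0.45 (adjusted p = 0.0955) and Lmo1 no longer passed (0.42, adjusted p = 0.288). With cells thinned to 1500 UMIs before the split 39 of 1494 genes were called (2.61%) and no member was (Lmo1 and Spink8 held too few UMIs to be tested), and outside clusters 0 and 5 with thinning, where 33 of 928 genes were called (3.56%), Zbtb20 was lower (-0.74, adjusted p = 0.0235). Of the other pyramidal genes 4 of 12 rose with Calb1, among them Itpka (0.78), Hpca (1.07) and Neurod6 (0.62), and Nrip3 fell by 1.13, with edgeR adjusted p of 0.000150, 0.000359, 0.000495 and 0.00125. Of the subiculum list 4 of 5 tested genes fell, led by Slc17a6 (-2.86) and Nts (-2.54), with adjusted p of 1.16e-13 and 1.13e-13. Of the deep cortical layers list 3 of 3 tested genes fell.

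No member passed a test of whether either split differed between treatments. The term for EPO against placebo within the Calb1 split had an adjusted p of 0.998 for each of the 8 (edgeR, 6963 genes, 1 called), and within the subiculum-gene split of 0.999 (6178 genes, 1 called). The log2 difference furthest from 0 was 0.75 for Spink8 in the Calb1 split and -0.63 for Man1a in the subiculum-gene split. Without the shared barcodes the Spink8 difference in the Calb1 split was 1.42 (adjusted p = 0.638, edgeR, 6952 genes, 2 called).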

How the data were processed

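Per the labels, cells of CA1 tissue, cut from hippocampal slices and digested with papain, were run through Drop-seq. What the authors deposited is a single matrix of unnormalized UMI counts, with genes in rows and 1000 barcodes per mouse in columns. The submitters' processing notes name bcl2fastq 2.15, STAR 2.4.0 and mm10. Multi-mapping rules are not given in the sources used here.

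Barcodes with over 1000 and up to 8000 detected genes and a mitochondrial share of 40% or less were retained, leaving 204479 to 1948490 UMIs per mouse. Seurat 5.3.0 integrated placebo and EPO cells (1000 variable genes each without the 8 members, 20 dimensions, resolution 1), and clusters were named from marker lists. Scrublet in scanpy 1.11.5 marked 0.369% to 18.6% of the cells of a mouse as doublets, which were kept. Counts were summed per mouse and tested with edgeR 4.0.16 (quasi-likelihood, Benjamini-Hochberg over all genes, 5%), with mouse as a term where cells of a mouse were divided. In each of these tests the estimate of spread was shared across genes. DESeq2 1.42.0 and limma 3.58.1 were alternatives. Scripts were tested on simulated counts. Replicate numbers are not shared between the treatments, so no pairs were formed.

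Named genes were the 8 members, up to 3 genes per direction and list that passed, the 4 leading genes of a cluster and the 3 genes most like a member. Rarres2 and the 5 genes that passed without placebo mouse 5 were named after their values were seen. The members and lists were chosen with earlier results of these data known.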

Additional observations from a re-analysis of the deposited data

Results flagged for a closer look

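Barcodes that failed the filter also held the 8 genes. Summed over them, Zbtb20 stood at 797 CPM (697 CPM in retained cells), Pou3f1 at 60.4 (184), Wfs1 at 42.9 (133), Fibcd1 at 41.1 (94.3), Spink8 at 21.8 (92.5), Mpped1 at 59.7 (142), Man1a at 73.5 (138) and Lmo1 at 13.5 (33.4). Only Zbtb20 was higher among the barcodes that were not retained. What these barcodes contain was not tested.

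For Pou3f1 the sign of the Calb1 difference was not the same in the treatment groups, though no test of it passed. Its level was higher in Calb1-positive cells in both placebo mice that could be used (126 to 269 CPM and 234 to 241 CPM) and lower in all 3 EPO mice (208 to 182, 258 to 219 and 259 to 257 CPM). The difference of the log2 changes was -0.63, with an adjusted p of 0.998 in edgeR's quasi-likelihood test, so it failed the correction, and the values of placebo mouse 5 and EPO mouse 6 barely differ between the sides. Without the cells of shared barcodes placebo mouse 1 stood at 84.7 and 200.3 CPM and the difference was -0.53 (adjusted p = 1.00).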

How the results depend on the processing

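Under all alternatives run, no member passed between EPO and placebo. Over all retained cells, 1 gene was called by DESeq2 and 1 with the D number as replicate block, Rarres2 in both, and 24 without a filter on low counts. In glutamatergic-like cells 2 genes (Apol11b, Rxfp1) were called without that filter, and 0 to 5 when 1 mouse was left out. In the Calb1 split, the 1127 calls became 460 with DESeq2, 493 with no replicate block, 39 with thinned cells, 33 with thinned cells outside clusters 0 and 5, and 680 to 999 without 1 mouse. Outside clusters 0 and 5 Fibcd1 reversed (-0.45) and Man1a, within 1 SE of 0 over all clusters, fell (-0.69). In the subiculum-gene split, the 826 calls became 144 with limma, 302 with no replicate block, 205 with thinned cells, 48 outside clusters 0 and 5, 1303 with 4 genes of the list, and 524 to 959 without 1 mouse. Members per cell went from 1.70 to 3.57 with no thinning, 1.21 at 1000 UMIs and 1.93 at a mitochondrial share of 20% or less, and lay between 1.64 and 1.76 without 1 mouse. With no thinning the share in glutamatergic-like minus oligodendrocyte-like cells, in percentage points, was 12.03 for Zbtb20, 20.2 for Pou3f1, 28.9 for Wfs1, 36.3 for Fibcd1, 24.3 for Spink8, 52.7 for Mpped1, 6.20 for Man1a (from -1.71) and 21.4 for Lmo1, and for Zbtb20 it was 18.6 with clustering without integration. A direction was read only where a value lay over 1 SE from 0 or passed the test. The cause of these changes was not tested, except that thinning and left-out clusters leave fewer counts. Depth limits Lmo1, which had 225 UMIs in glutamatergic-like cells.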
